A study of Homo sapiens with 8 samples.

Results

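The FGF19 axis and the ERBB and MET receptors were followed in human liver cancer cells through 10 genes: the ligands FGF19 and FGF21, the coreceptor KLB, the FGF receptors FGFR2, FGFR3 and FGFR4, the ERBB receptors EGFR, ERBB2 and ERBB3, and the receptor MET. Every probe set to which the platform annotation gives one of these symbols alone was taken, which was 48 of the 49293 probe sets that are not array controls and 10 of 18132 named genes. Signal high enough to test was present for 9 of the 10, among 11383 genes tested. The groups were Huh7.5.1 cells after 48 h with 10 μM CU27, Huh7.5.1 cells after 48 h with the solvent DMSO, and Hep3B cells after 48 h with DMSO, with 2 arrays each. Huh7.5.1 and Hep3B are established human hepatocellular carcinoma lines, so the comparison between lines sets 1 line against 1 other. CU27 is known here by its code name alone, and the study compared transcript levels with and without it. The labels call the arrays biological replicates without naming separate cultures, so p-values measure the spread between these samples. The 2 Hep3B CU27 columns were not used, because at each of the 49395 probe sets they equal fixed linear combinations of the Hep3B DMSO values, within 1e-06.

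FGF19 is a hormone that normally comes from the gut after a meal and reaches the liver, where it binds FGFR4 together with the coreceptor KLB (beta-Klotho) and lowers bile acid synthesis. FGF21 uses the same coreceptor with other FGF receptors. The ERBB receptors bind ligands of the EGF and neuregulin families, MET binds hepatocyte growth factor, and all of these receptors signal through shared adaptors into the RAS and PI3 kinase pathways.

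Values are the deposited log2 signals. The floor is the 50th percentile of all probe sets, log2 6.11, and a gene was tested when at least 1 group mean reached it. For a group mean under the floor, the ratio to the floor bounds the fold, which is then given as "at least". A gene is read from the brightest of its probe sets by mean signal, and differences carry the standard error of limma's fit over all genes on the 6 arrays, with p-values adjusted by the Benjamini-Hochberg method. Where a call was lost without an array, a lone value in brackets is the adjusted p without it. Array medians were 6.26 and 6.25 in CU27, 6.27 and 6.23 in Huh7.5.1 with DMSO, and 5.85 and 5.82 in Hep3B with DMSO. The median gene was 0.22 higher in Huh7.5.1 than in Hep3B and 0.02 higher with CU27, on the log2 scale, so differences of the 10 genes between the lines are also given relative to that shift. The 3′ minus 5′ control difference of ACTB, which grows as RNA degrades, was 0.98 and 1.21 with CU27, 0.94 and 1.06 in Huh7.5.1 with DMSO, and 2.28 and 1.60 in Hep3B with DMSO, and its part in the differences between lines was not tested. Of the 12 hepatocyte markers measured, 12 lay above the floor on every array, while PTPRC, the defining leukocyte marker, lay between 2.76 and 3.55. Of the 8 leukocyte markers, LYZ (7.36 to 11.86) and CD68 (6.67 to 9.34) lay above the floor on every array.

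With CU27, FGF19, FGFR4 and ERBB3 were lower, no gene of the 10 was higher at its brightest probe set, and 6 of the 9 tested did not pass the test. EGFR was higher at 2 of its 6 tested probe sets. One of them, 11725103_s_at, was brighter with CU27 than the probe set used (group means 10.29 and 9.72). The 3 genes that passed are to be read against 24.7% of all genes tested, 12.1% lower and 12.6% higher. The median difference of the 9 genes was -0.36, against 0.02 for all genes tested. Between the lines in DMSO, FGF19, EGFR and MET were higher in Huh7.5.1 and KLB, FGFR2, FGFR3 and FGFR4 were lower, so that 7 of 9 passed, where 64% of all genes did (41% higher, 22.9% lower). After centring each array on its median, 3 of the genes were higher and 5 lower, against 23.5% and 39.6% of all genes. Both comparisons use the same Huh7.5.1 DMSO arrays, so their differences are not independent. In cultures measured in bulk, fewer cells expressing a gene and less RNA per cell cannot be told apart.

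The number of genes called with CU27 depended on single arrays. It was 5 of 9 without CU27 replicate 1, 2 without Huh7.5.1 DMSO replicate 1, and 1 without any of CU27 replicate 2, Huh7.5.1 DMSO replicate 2, Hep3B DMSO replicate 2 or Hep3B DMSO replicate 3. FGF19 was the gene that passed in all of these. The CU27 arrays were separated from the Huh7.5.1 DMSO arrays for 6 of the 9 genes, 5 below and 1 above, and such separation was found for 63.8% of all genes tested. Between the lines the arrays separated for 9 of 9 genes, 4 above and 5 below, against 84.8% of all genes. Hepatocyte markers moved with CU27 as well. Of 12, 6 fell and 0 rose, against 12.1% and 12.6% of all genes, with a median of -0.66. Their summed linear signal was 96809 and 76579.8 with CU27 against 113050 and 118762 in Huh7.5.1 DMSO. Whether this has a part in the lower signal of FGF19, FGFR4 and ERBB3 was not tested.

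**Figure D1:**
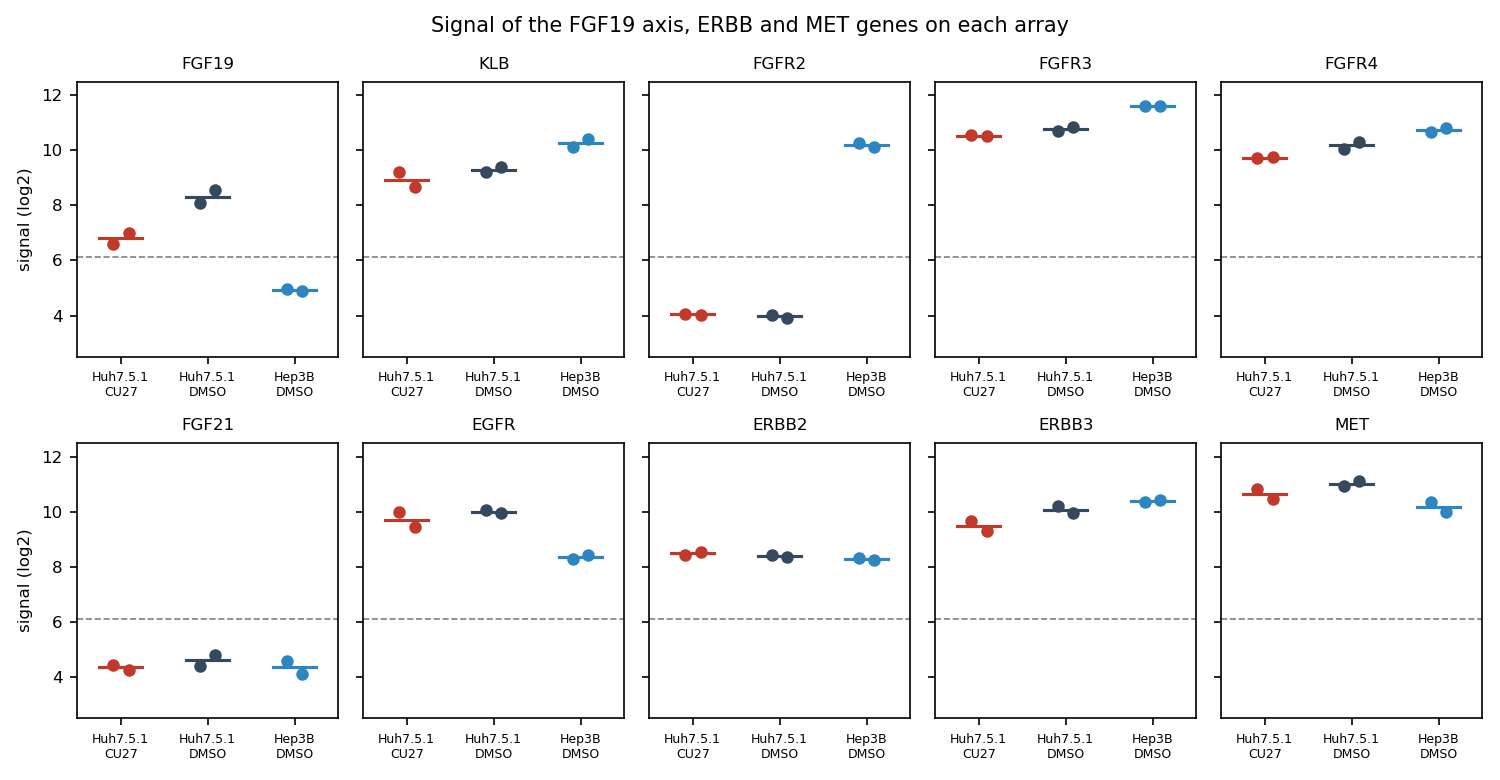
Log2 signal (y axis) of the 10 genes on each array, with 1 point per array, the group mean as a bar, and the floor of 6.11 as a dashed line; groups run from Huh7.5.1 CU27 over Huh7.5.1 DMSO to Hep3B DMSO. FGF19 takes a different level in each group, FGFR2 is above the floor in Hep3B alone, and FGF21 is below it everywhere.

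FGF19 showed the largest CU27 difference of the 9 genes. Its single probe set read 6.61 and 6.99 with CU27, 8.09 and 8.55 in Huh7.5.1 with DMSO, and 4.96 and 4.88 in Hep3B with DMSO. The 3 groups did not overlap: Huh7.5.1 DMSO was highest, CU27 lay between, and Hep3B lay below the floor. FGF19 fell by 1.52 ± 0.20 with CU27 (adjusted p = 0.00188), which was 2.86-fold lower. It passed the test in each of the 15 alternative settings, with values between -1.74 and -1.29 and adjusted p between 0.000849 and 0.022. Between the lines FGF19 was 3.40 ± 0.20 higher in Huh7.5.1 (adjusted p = 1.85e-06), at least 4.63-fold, and 3.17 higher relative to the shift. The gene lies at chr11:69698238-69704022 on GRCh38.p14.

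FGF21, the hormone of fasting and cellular stress that shares the KLB coreceptor, did not reach the floor. Its single probe set read 4.43 and 4.27 with CU27, 4.41 and 4.82 in Huh7.5.1 with DMSO, and 4.60 and 4.11 in Hep3B with DMSO. All 6 values lay below the floor and the groups overlapped, so no fold is given. Its promoter is shown because stress-induced FGF21 transcription is known to run through ATF4 at C/EBP-ATF response elements. The window covers 250 bases before to 50 after the annotated start, chr19:48755274-48755573 on the plus strand of GRCh38.p14, from RefSeq, and capitals mark its single match to TGATGNAA, read on the minus strand 54 bases before the start.
FGF21: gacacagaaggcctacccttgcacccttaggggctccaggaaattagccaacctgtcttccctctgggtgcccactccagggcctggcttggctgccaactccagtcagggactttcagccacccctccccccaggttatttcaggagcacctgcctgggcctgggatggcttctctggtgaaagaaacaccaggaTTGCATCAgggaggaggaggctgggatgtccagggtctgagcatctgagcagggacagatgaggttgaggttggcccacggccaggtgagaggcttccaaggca
Such a match, searched on both strands, was present in 3.62% of 35116 promoter windows, and among the members in 2 of 14 windows, the other belonging to FGFR2. A match of letters is a description and not a binding site.

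KLB, the coreceptor without which FGF19 and FGF21 bind their receptors poorly, was lower in Huh7.5.1 than in Hep3B. It read 9.21 and 8.66 with CU27, 9.21 and 9.38 in Huh7.5.1 with DMSO, and 10.13 and 10.41 in Hep3B with DMSO. The Hep3B arrays were the highest, and CU27 overlapped Huh7.5.1 DMSO. Between the lines the difference was -0.98 ± 0.20 (adjusted p = 0.00217), 1.97-fold lower, or -1.20 relative to the shift. All 3 KLB probe sets were lower, from -1.94 to -0.50. The smallest of these, at 11730625_at, missed the threshold without any 1 of the 4 DMSO arrays (adjusted p = 0.072 and 0.0638 without Huh7.5.1 replicates 1 and 2, 0.0702 and 0.0689 without Hep3B replicates 2 and 3). The CU27 difference was -0.36 ± 0.20 (adjusted p = 0.217) and did not pass, with -0.36 to -0.26 over the 3 probe sets. It passed without CU27 replicate 1 (-0.64, adjusted p = 0.0352) and was -0.08 without CU27 replicate 2 (adjusted p = 0.798). KLB lies at chr4:39406930-39451533.

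FGFR2, whose splice forms bind different sets of FGFs, had the largest difference between the lines among the 9 members tested. The brightest probe set read 4.06 and 4.04 with CU27, 4.03 and 3.92 in Huh7.5.1 with DMSO, and 10.26 and 10.14 in Hep3B with DMSO. Both Huh7.5.1 groups were below the floor and Hep3B far above it. The difference between the lines was -6.22 ± 0.16 (adjusted p = 1.96e-08), at least 17.0-fold lower in Huh7.5.1, and -6.44 relative to the shift. With CU27 the difference was 0.07 ± 0.16 (adjusted p = 0.786), and no fold is given because both groups were below the floor. Of 12 FGFR2 probe sets 5 were tested, and all 5 were lower in Huh7.5.1, which was below the floor at each, with measured differences of -6.60 to -4.14. The other 7 stayed below the floor in all groups. Over all 12 the differences ran from -6.60 to 1.06, and the mean of all probe sets differed by -2.57 (adjusted p = 3.17e-06). The window at the start of the gene (chr10:121478330-121598458) is shown because FGFR2 had signal in one line and none above the floor in the other. It covers chr10:121598395-121598694 on the minus strand of GRCh38.p14, from RefSeq, and holds 79.3% G or C. Capitals mark 5 matches to GGGCGG, the GC box letters, of which the last 2 overlap.
FGFR2: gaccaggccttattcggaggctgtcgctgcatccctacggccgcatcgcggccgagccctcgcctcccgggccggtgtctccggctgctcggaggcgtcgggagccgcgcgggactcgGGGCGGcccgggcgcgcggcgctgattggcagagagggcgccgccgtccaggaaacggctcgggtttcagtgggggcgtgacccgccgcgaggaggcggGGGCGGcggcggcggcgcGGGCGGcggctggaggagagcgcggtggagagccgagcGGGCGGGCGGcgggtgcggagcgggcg
A GC box match on either strand was found in 45% of all promoter windows, and in 6 of 14 windows and 5 of 8 genes among the members in the promoter table. None of the 14 windows was compared with a measured signal.

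FGFR3 was lower in Huh7.5.1 at its bright probe set. That probe set read 10.56 and 10.50 with CU27, 10.69 and 10.84 in Huh7.5.1 with DMSO, and 11.60 and 11.62 in Hep3B with DMSO. The groups did not overlap, and Hep3B was highest. Between the lines the difference was -0.84 ± 0.10 (adjusted p = 0.000134), 1.79-fold lower, or -1.06 relative to the shift. The second probe set, near the floor, differed by 0.50 (adjusted p = 0.0849 over all probe sets), and the mean of both by -0.17 (adjusted p = 0.338), so the lower FGFR3 signal rests on 1 probe set. With CU27 FGFR3 differed by -0.23 ± 0.10 (adjusted p = 0.136), which did not pass although both CU27 arrays were below both DMSO arrays. FGFR3, which lies at chr4:1793293-1808867, can also bind FGF19 in the presence of KLB.

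FGFR4, the main FGF19 receptor of hepatocytes, fell with CU27 by a small amount. It read 9.72 and 9.75 with CU27, 10.04 and 10.32 in Huh7.5.1 with DMSO, and 10.65 and 10.80 in Hep3B with DMSO. CU27 was lowest and Hep3B highest, without overlap. The CU27 difference was -0.45 ± 0.13 (adjusted p = 0.041), 1.36-fold lower. Leaving out any of 5 arrays ended this call: CU27 replicate 1 (adjusted p = 0.0875), CU27 replicate 2 (0.0991), Huh7.5.1 DMSO replicate 2 (-0.31, adjusted p = 0.271), Hep3B DMSO replicate 2 (0.0687) or Hep3B DMSO replicate 3 (0.0692). It was also lost with the mean of all probe sets (adjusted p = 0.0873), without a filter on dim genes (0.0534), without the intensity trend (0.0633) and in a fit of the 4 arrays compared (0.0724). In the fit over all probe sets, the brightest FGFR4 probe set, 11757181_x_at, missed the threshold with CU27 (adjusted p = 0.0503). There 2 of 7 FGFR4 probe sets passed with CU27, 11744657_x_at (-0.49) and 11752172_a_at (-0.55). Both calls ended without any 1 of the 6 arrays, with adjusted p from 0.054 without Huh7.5.1 DMSO replicate 1 to 0.284 without Huh7.5.1 DMSO replicate 2. Both were also lost without a filter on dim probe sets, with a floor at the 25th percentile, without the intensity trend and in a fit of the 4 arrays compared (adjusted p from 0.0545 to 0.0813), and 11752172_a_at after centring (0.0508). Of the 7, 6 lay between -0.55 and -0.41, and 11762799_a_at differed by 0.03.

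Between the lines the FGFR4 probe sets disagreed. The brightest differed by -0.54 ± 0.13 (adjusted p = 0.00663), or -0.77 relative to the shift. That call was lost without Huh7.5.1 DMSO replicate 1 (-0.41, adjusted p = 0.063) or Hep3B DMSO replicate 3 (-0.47, adjusted p = 0.058). In the fit over all probe sets 3 of 7 were lower in Huh7.5.1 (-0.54, -0.84 and -0.94), 2 were higher (0.69 and 1.28), and 2 did not pass. The higher call of 11740240_a_at was lost without Huh7.5.1 DMSO replicate 1 (adjusted p = 0.0589), Huh7.5.1 DMSO replicate 2 (0.0762) or Hep3B DMSO replicate 2 (0.38, adjusted p = 0.142). It was also lost after quantile normalization (0.41, adjusted p = 0.125) and after centring (0.27, adjusted p = 0.3), while that of 11753528_a_at (1.28) passed in all 12 alternatives. The mean of all FGFR4 probe sets differed by -0.03 (adjusted p = 0.867), and without _x and _s probe sets FGFR4 differed by -0.16 (adjusted p = 0.413), so no direction can be given for the gene at chr5:177086915-177098144 as a whole.

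**Figure D2:**
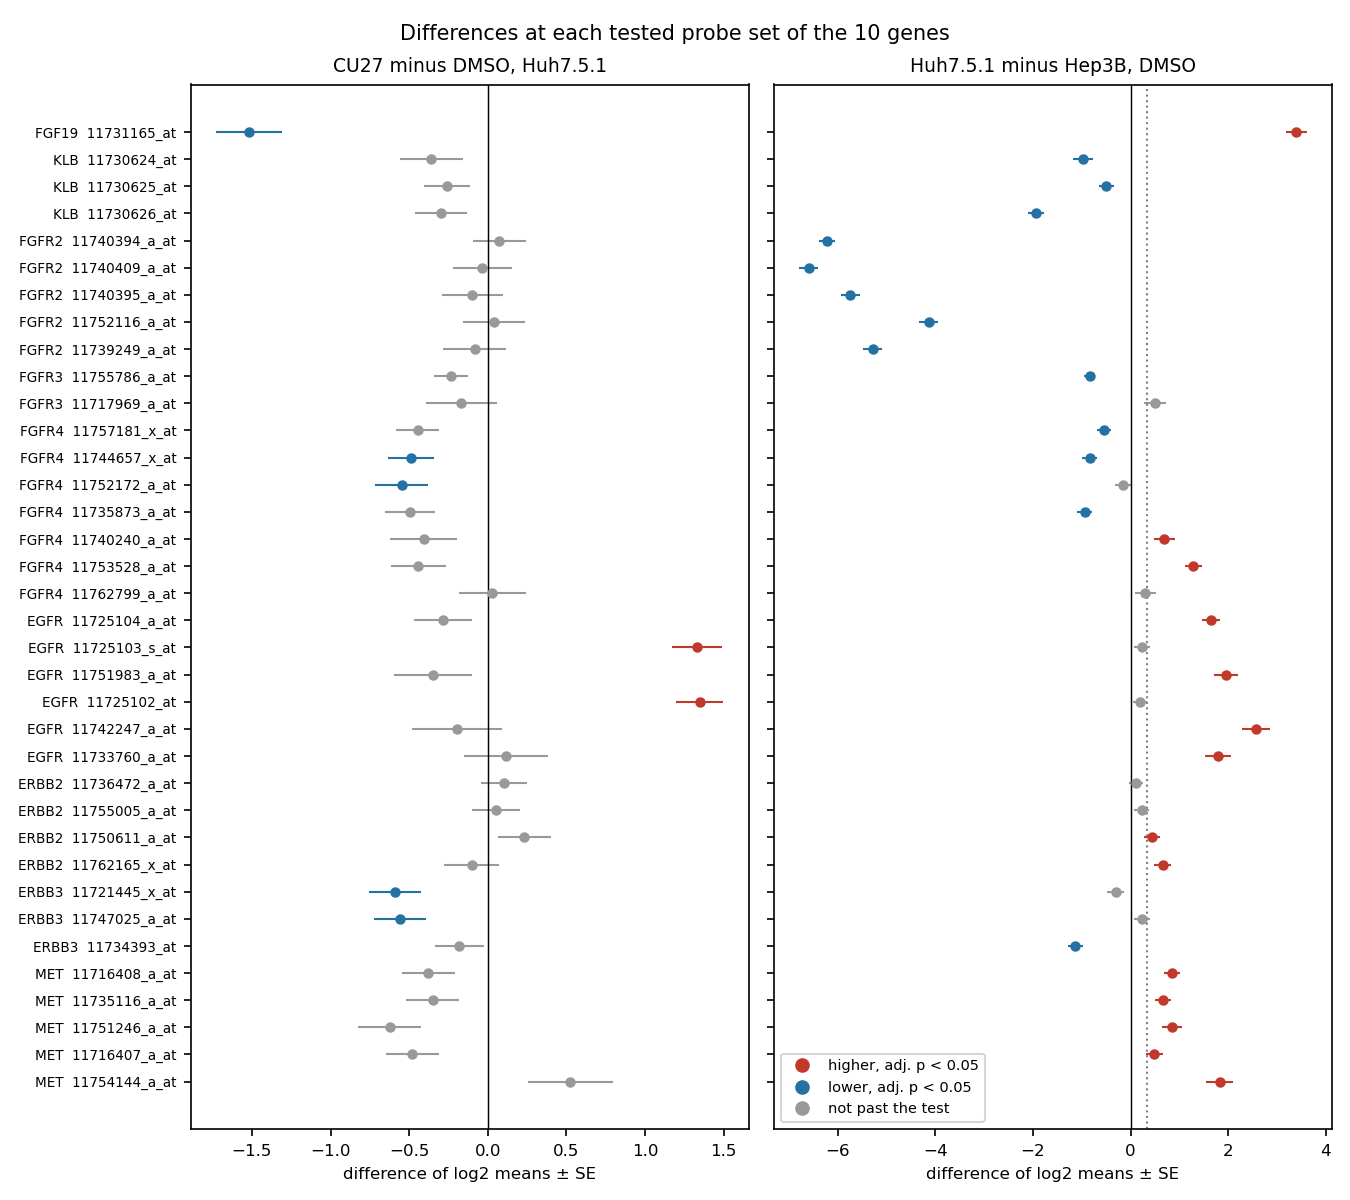
Difference of log2 means ± SE (x axis) at each of the 36 tested probe sets of 9 genes (y axis), for CU27 minus DMSO in Huh7.5.1 on the left and Huh7.5.1 minus Hep3B in DMSO on the right; the dotted line on the right is the median of all probe sets, 0.34. With CU27, 2 probe sets are higher and 5 lower. Between the lines 14 are higher and 13 lower, and FGFR4 holds both directions. The 14 include MET 11754144_a_at, which is below the floor in both lines.

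Of the 48 probe sets 36 were tested, and the probe set fit, over 27836 probe sets, gives its own adjusted p. With CU27, 2 were higher, 5 lower and 29 did not pass, where 21.7% of all probe sets passed (10.4% higher and 11.3% lower). Between the lines 14 were higher, 13 lower and 9 did not pass, where 64.2% passed (44.8% higher and 19.4% lower). The 14 include MET 11754144_a_at, which was below the floor in both lines. Probe sets of the same gene share its transcripts and are not replicates of each other.

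EGFR, the receptor of EGF and related ligands, gave different readings at different probe sets. The probe set with the highest mean, 11725104_a_at, read 9.98 and 9.46 with CU27, 10.05 and 9.95 in Huh7.5.1 with DMSO, and 8.30 and 8.42 in Hep3B with DMSO. Here CU27 overlapped DMSO and Hep3B was lowest. Its CU27 difference was -0.28 ± 0.18 (adjusted p = 0.288) and did not pass. It passed without CU27 replicate 1 (-0.54, adjusted p = 0.0374) and was -0.02 without CU27 replicate 2 (adjusted p = 0.94). Between the lines it was 1.64 ± 0.18 higher in Huh7.5.1 (adjusted p = 6.25e-05), 3.12-fold, or 1.42 relative to the shift.

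A pair of other EGFR probe sets rose with CU27. Probe set 11725103_s_at read 10.45 and 10.12 with CU27, 9.04 and 8.87 in Huh7.5.1 with DMSO, and 8.71 and 8.73 in Hep3B with DMSO. Probe set 11725102_at read 8.83 and 8.70 with CU27, 7.49 and 7.35 in Huh7.5.1 with DMSO, and 7.21 and 7.24 in Hep3B with DMSO. Both CU27 arrays lay above all DMSO arrays at each, and the lines were close together. EGFR 11725103_s_at rose by 1.33 ± 0.16 (adjusted p = 0.00197) and 11725102_at by 1.35 ± 0.15 (adjusted p = 0.00161), and both calls held in all 13 alternatives run for them. Neither passed between the lines (0.23, adjusted p = 0.227, and 0.19, adjusted p = 0.285).

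The other EGFR probe sets above the floor behaved like the brightest. Probe sets 11751983_a_at, 11742247_a_at and 11733760_a_at differed with CU27 by -0.35, -0.20 and 0.11 (adjusted p = 0.356, 0.681 and 0.808), and none passed. Between the lines the same EGFR probe sets were higher in Huh7.5.1. The difference was 1.96 at 11751983_a_at. Hep3B was below the floor at the other two, which were at least 2.62-fold (11742247_a_at) and 1.71-fold (11733760_a_at) higher. Thus 2 of the 6 tested rose with CU27 and did not pass between the lines, while 4 did not pass with CU27 and were higher in Huh7.5.1. This grouping was made after the values were seen and was not tested. The mean of all 8 EGFR probe sets differed by 0.25 with CU27 (adjusted p = 0.275), so the sign for the gene depends on the probe set.

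**Figure D3:**
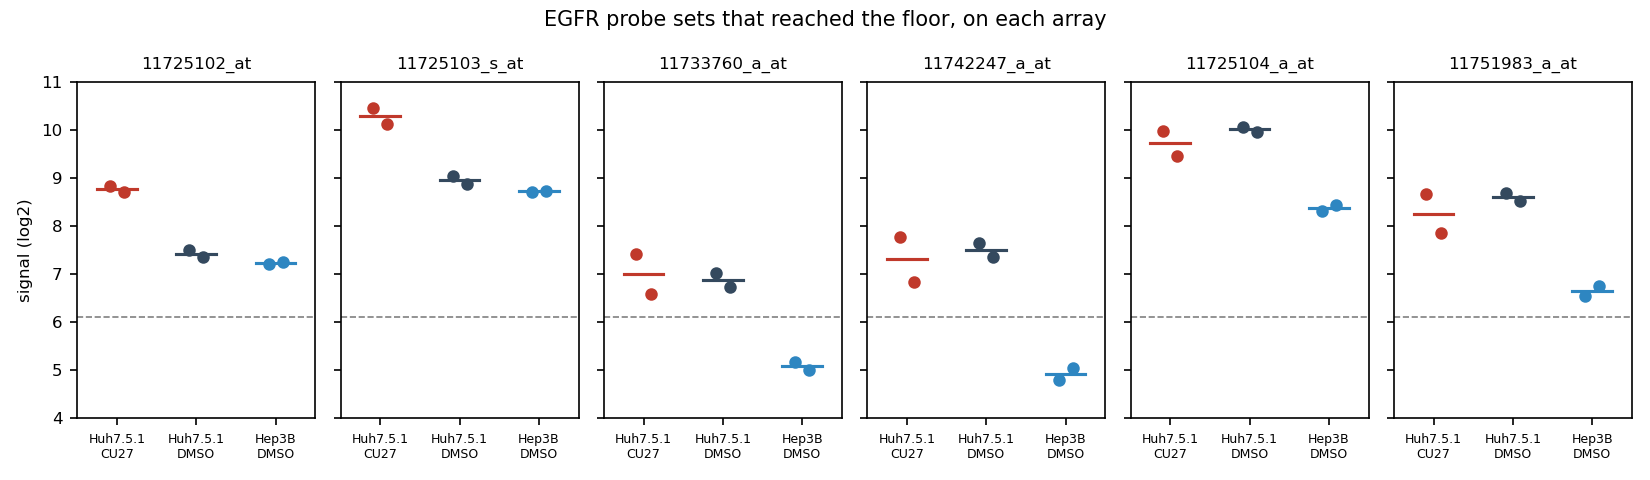
Log2 signal (y axis) of the 6 EGFR probe sets above the floor on each array, with bars for group means and the floor of 6.11 dashed; groups run from Huh7.5.1 CU27 over Huh7.5.1 DMSO to Hep3B DMSO. At 11725102_at and 11725103_s_at CU27 lies above both DMSO groups, and at the other 4 Hep3B lies below both Huh7.5.1 groups.

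Where each EGFR probe set lies along the transcripts was not analysed here. The RefSeq promoter table holds 2 annotated starts for the gene, which lies at chr7:55019017-55211628, and both windows are shown so that the starts can be compared. The first, chr7:55018767-55019066 on the plus strand of GRCh38.p14, holds 75.3% G or C. The second, chr7:55109589-55109888 on the same strand, holds 42.0%. Capitals mark matches to GGGCGG, read on the minus strand, in the first, and to TATAAA, the TATA box letters, in the second.
EGFR first window: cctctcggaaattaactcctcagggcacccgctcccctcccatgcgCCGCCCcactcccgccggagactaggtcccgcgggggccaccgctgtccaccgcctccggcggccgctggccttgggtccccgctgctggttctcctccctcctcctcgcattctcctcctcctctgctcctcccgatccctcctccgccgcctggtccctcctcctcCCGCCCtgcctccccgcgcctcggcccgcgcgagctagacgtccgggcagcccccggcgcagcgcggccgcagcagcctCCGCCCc
EGFR second window: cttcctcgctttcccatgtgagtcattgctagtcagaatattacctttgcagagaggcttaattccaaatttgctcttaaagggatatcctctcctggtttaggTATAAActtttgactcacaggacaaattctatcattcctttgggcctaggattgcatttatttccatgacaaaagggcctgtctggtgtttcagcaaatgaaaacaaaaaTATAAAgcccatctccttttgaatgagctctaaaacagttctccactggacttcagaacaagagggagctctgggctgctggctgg
The first window holds 3 GC box matches and 0 TATA matches, and the second 2 TATA matches and 0 GC box matches. A TATA match on either strand was found in 11.5% of all windows and in 1 of the 14 member windows, this one. The arrays do not say which start was used.

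ERBB2, the ERBB receptor that binds no ligand of its own and pairs with the others, did not pass either test. It read 8.44 and 8.55 with CU27, 8.45 and 8.34 in Huh7.5.1 with DMSO, and 8.33 and 8.24 in Hep3B with DMSO. CU27 overlapped Huh7.5.1 DMSO, and the Hep3B arrays lay just below. The differences were 0.10 ± 0.14 with CU27 (adjusted p = 0.656) and 0.11 ± 0.14 between the lines (adjusted p = 0.51). The difference between the lines was -0.11 relative to the shift, -0.31 after centring the arrays (adjusted p = 0.0876) and -0.19 after quantile normalization (adjusted p = 0.274), so its sign depends on the scaling. With the mean of all probe sets ERBB2 was 0.45 higher in Huh7.5.1 (adjusted p = 0.0121), where the median gene was 0.32 higher. In the fit over all probe sets, 2 of 4 were higher in Huh7.5.1. The call of 11750611_a_at (0.44, adjusted p = 0.0441) was lost without Huh7.5.1 DMSO replicate 1 (0.119), replicate 2 (0.153) or Hep3B DMSO replicate 2 (0.31, adjusted p = 0.213), and without a filter on dim probe sets (0.0513). It was 0.04 after quantile normalization (adjusted p = 0.862) and 0.03 after centring (adjusted p = 0.904). That of 11762165_x_at (0.65, adjusted p = 0.0105) was lost without Huh7.5.1 DMSO replicate 1 (0.0557) or Hep3B DMSO replicate 2 (0.056). Hep3B was below the floor at this probe set, which was at least 1.03-fold higher in Huh7.5.1. It was run in 10 alternatives and has no value after centring or quantile normalization. ERBB2 lies at chr17:39688094-39728658.

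ERBB3, the neuregulin receptor with little kinase activity of its own, fell with CU27. It read 9.68 and 9.30 with CU27, 10.22 and 9.94 in Huh7.5.1 with DMSO, and 10.35 and 10.43 in Hep3B with DMSO. CU27 was lowest and Hep3B highest, without overlap. ERBB3 fell by 0.59 ± 0.16 (adjusted p = 0.0296), 1.5-fold lower. It ended without CU27 replicate 2 (-0.40, adjusted p = 0.138), Huh7.5.1 DMSO replicate 1 (-0.45, adjusted p = 0.174), Huh7.5.1 DMSO replicate 2 (-0.73, adjusted p = 0.0621), Hep3B DMSO replicate 2 (0.0598) or Hep3B DMSO replicate 3 (0.0605), and in a fit of the 4 arrays compared (0.0615). A second probe set differed by -0.56 (adjusted p = 0.0413 over all probe sets) and the last by -0.18 (adjusted p = 0.445). The second, 11747025_a_at, missed the threshold without any 1 of the 6 arrays, with adjusted p between 0.0545 without Huh7.5.1 DMSO replicate 1 and 0.262 without Huh7.5.1 DMSO replicate 2, and in a fit of the 4 arrays compared (0.0674), with a floor at the 25th percentile (0.0563) and without a filter (0.0664).

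Between the lines ERBB3 differed by -0.31 ± 0.16 (adjusted p = 0.126), which did not pass on the deposited scale. Relative to the shift it was -0.53, and the test was passed after centring the arrays (-0.72, adjusted p = 0.00273), after quantile normalization (-0.51, adjusted p = 0.0231) and for the mean over its 3 probe sets (-0.40, adjusted p = 0.0197). The ERBB3 probe sets again differed, with -1.13 at 11734393_at (adjusted p = 0.000275) and 0.23 at 11747025_a_at (adjusted p = 0.24), and without _x and _s probe sets the ERBB3 value turned to 0.23 (adjusted p = 0.234). The value was -0.17 without Huh7.5.1 DMSO replicate 2 (adjusted p = 0.509). ERBB3 lies at chr12:56080108-56103505.

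MET, the receptor of hepatocyte growth factor, was higher in Huh7.5.1 than in Hep3B. It read 10.83 and 10.46 with CU27, 10.94 and 11.10 in Huh7.5.1 with DMSO, and 10.35 and 9.99 in Hep3B with DMSO. CU27 lay between the DMSO groups, and no groups overlapped. The difference between the lines was 0.85 ± 0.16 (adjusted p = 0.00174), 1.81-fold, or 0.63 relative to the shift, and it passed in all 14 alternatives. In the fit over all probe sets, 4 MET probe sets above the floor in both lines were higher in Huh7.5.1, by 0.49 to 0.85. The last tested, 11754144_a_at, was below the floor in both lines and is given no difference between them. With CU27 MET differed by -0.38 ± 0.16 (adjusted p = 0.128), which did not pass. It passed without CU27 replicate 1 (-0.56, adjusted p = 0.0496) and was -0.19 without CU27 replicate 2 (adjusted p = 0.507). Of the 5 probe sets, 4 lay below 0 and the dimmest, 11754144_a_at, at 0.52 (adjusted p = 0.205). MET lies at chr7:116672196-116798377.

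Scaling and single arrays decided 3 of the 4 MET probe set calls between the lines. For 11716407_a_at (0.49, adjusted p = 0.0329), MET missed the threshold without Huh7.5.1 DMSO replicate 1 (0.0533), replicate 2 (0.181), Hep3B DMSO replicate 2 (0.0569) or replicate 3 (0.16), after quantile normalization (0.15, adjusted p = 0.47) and after centring (0.07, adjusted p = 0.75). For 11735116_a_at (0.67, adjusted p = 0.00801) it did so without Huh7.5.1 DMSO replicate 2 (0.0603) or Hep3B DMSO replicate 3 (0.0692), and after centring (0.25, adjusted p = 0.226). For 11751246_a_at (0.85, adjusted p = 0.00568) it did so without Hep3B DMSO replicate 3 (0.0535) and after centring (0.43, adjusted p = 0.0875).

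The other FGF genes were mostly dim. Of 23 other receptors, coreceptors and ligands measured, 4 were tested. With CU27 1 rose and 1 fell, against 12.6% and 12.1% of all genes. FGFR1, an FGF receptor common in mesenchymal cells, read 7.69 and 7.84 with CU27, 8.24 and 8.41 in Huh7.5.1 with DMSO, and 7.32 and 7.11 in Hep3B with DMSO. Huh7.5.1 DMSO was highest, without overlap. FGFR1 differed by -0.56 ± 0.16 with CU27 (adjusted p = 0.0297), a call lost without CU27 replicate 1 (0.0899), CU27 replicate 2 (0.0612), Huh7.5.1 DMSO replicate 1 (0.0737) or Huh7.5.1 DMSO replicate 2 (0.192). Between the lines it was 1.11 ± 0.16 higher in Huh7.5.1 (adjusted p = 0.000272), 2.16-fold. FGF11, an intracellular FGF homologue, was 0.64 higher with CU27 (adjusted p = 0.0217), at least 1.31-fold, which was lost without CU27 replicate 2 (0.0979), Huh7.5.1 DMSO replicate 1 (0.0612) or Huh7.5.1 DMSO replicate 2 (0.149), and was 0.32 with the mean of its probe sets (adjusted p = 0.153). The list's medians were -0.14 with CU27 and 0.40 between the lines, where 2 were higher and 0 lower, against 41% and 22.9% of all genes. The second of these, FGF4, differed by 0.56 (adjusted p = 0.0157), at least 1.14-fold, with Hep3B below the floor. That difference was 0.14 after centring (adjusted p = 0.5) and after quantile normalization (adjusted p = 0.503). The call was lost without Huh7.5.1 DMSO replicate 2 (0.0911) or Hep3B DMSO replicate 2 (0.0803).

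Of the genes of bile acid synthesis, its regulation and transport listed with the FGF19 axis, 11 were measured and 5 tested. The list is not one of FGF19 targets. CYP7A1, the rate-limiting enzyme of bile acid synthesis and the best known target of FGF19, read 4.0 and 4.19 with CU27, 3.81 and 3.90 in Huh7.5.1 with DMSO, and 3.42 and 3.42 in Hep3B with DMSO. All lay below the floor, so CYP7A1 was not tested. With CU27, 1 of 5 rose and 0 fell, against 12.6% and 12.1% of all genes, with a list median of -0.37. The gene that rose was CYP27A1, which starts the alternative route of bile acid synthesis. It rose by 0.57 (adjusted p = 0.0159), and the call was lost without Huh7.5.1 DMSO replicate 1 (0.104) or replicate 2 (0.0579). Between the lines 2 were higher and 2 lower, against 41% and 22.9% of all genes, with a median of 0.32. SLC51B, a subunit of the basolateral bile acid exporter, read 9.38 and 9.66 with CU27, 9.58 and 10.25 in Huh7.5.1 with DMSO, and 7.05 and 6.08 in Hep3B with DMSO. SLC51B was thus 3.35 ± 0.32 higher in Huh7.5.1 (adjusted p = 2.63e-05), 10.2-fold, with no overlap between the lines.

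The remaining bile acid genes differed less. ABCB4, the phospholipid transporter of the canalicular membrane, was 0.83 higher in Huh7.5.1 (adjusted p = 0.00627). It missed the threshold without Huh7.5.1 DMSO replicate 2 (0.58, adjusted p = 0.0619) or Hep3B DMSO replicate 3 (0.0525), after centring (0.41, adjusted p = 0.107) and after quantile normalization (0.43, adjusted p = 0.0946). NR5A2, a nuclear receptor that drives bile acid synthesis genes, differed by -0.53 (adjusted p = 0.00864), lost without Huh7.5.1 DMSO replicate 1 (0.0512). CYP27A1 differed by -0.35 (adjusted p = 0.0435), and this was lost without any 1 of the 4 DMSO arrays, with adjusted p of 0.228 and 0.0632 without Huh7.5.1 replicates 1 and 2 and of 0.111 and 0.148 without Hep3B replicates 2 and 3.

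Among ligands of the ERBB receptors, EREG fell with CU27 while HBEGF, EGF and NRG4 rose. These came from 14 other receptors and ligands measured, of which 7 were tested. With CU27 12.6% of all genes rose and 12.1% fell. The list's medians were 0.09 with CU27 and 0.56 between the lines. EREG, the ligand epiregulin of EGFR and ERBB4, read 4.69 and 4.06 with CU27, 6.48 and 7.35 in Huh7.5.1 with DMSO, and 8.38 and 8.37 in Hep3B with DMSO. CU27 lay below the floor and Hep3B was highest. EREG differed by -2.54 ± 0.29 (adjusted p = 0.00111), at least 1.74-fold lower with CU27, and by -1.47 ± 0.29 between the lines (adjusted p = 0.00217).

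HBEGF, an EGFR and ERBB4 ligand released from the cell surface by proteases, read 8.0 and 8.51 with CU27, 7.06 and 7.60 in Huh7.5.1 with DMSO, and 5.86 and 5.99 in Hep3B with DMSO. The groups did not overlap, and CU27 was highest. HBEGF rose by 0.92 ± 0.23 (adjusted p = 0.019), 1.90-fold, a call lost without CU27 replicate 2 (0.117) or Huh7.5.1 DMSO replicate 1 (0.124). It was 1.41 higher in Huh7.5.1 than in Hep3B (adjusted p = 0.000617), at least 2.33-fold.

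EGF itself read 7.57 and 8.25 with CU27, 7.27 and 7.11 in Huh7.5.1 with DMSO, and 2.67 and 2.71 in Hep3B with DMSO. NRG4, a neuregulin that binds ERBB4, read 8.09 and 7.59 with CU27, 7.09 and 7.19 in Huh7.5.1 with DMSO, and 3.09 and 3.36 in Hep3B with DMSO. Both were above the floor in Huh7.5.1 alone, and their CU27 arrays lay above both DMSO arrays. EGF was 4.50 ± 0.23 higher in Huh7.5.1 (adjusted p = 6.74e-07), at least 2.12-fold, and 3.00 higher with the mean of its probe sets. NRG4 was 3.92 ± 0.20 higher (adjusted p = 8.29e-07), at least 2.05-fold. With CU27 EGF was 0.72 higher (adjusted p = 0.0464), which was lost without CU27 replicate 2 (0.38, adjusted p = 0.26), Huh7.5.1 DMSO replicate 1 (0.112), Huh7.5.1 DMSO replicate 2 (0.217), Hep3B DMSO replicate 2 (0.0742) or Hep3B DMSO replicate 3 (0.0747). The EGF call was also lost without a filter on dim genes (0.0516), without _x and _s probe sets (0.0515) and in a fit of the 4 arrays compared (0.0707). NRG4 was 0.70 higher (adjusted p = 0.037), lost without CU27 replicate 1 (0.45, adjusted p = 0.172), Huh7.5.1 DMSO replicate 1 (0.154), Huh7.5.1 DMSO replicate 2 (0.133) or Hep3B DMSO replicate 3 (0.0505), and 0.39 with the mean of its probe sets (adjusted p = 0.124).

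Between the lines 4 of the 7 were higher and 1 lower, against 41% and 22.9% of all genes. The fourth higher gene was BTC, betacellulin, at 0.56 (adjusted p = 0.027), or 0.34 relative to the shift. Hep3B was below the floor for BTC, so it was at least 1.33-fold higher. ERBB4, the receptor of NRG4, read 4.17 and 4.43 with CU27, 4.11 and 4.10 in Huh7.5.1 with DMSO, and 5.58 and 5.10 in Hep3B with DMSO. The MET ligand HGF read 4.38 and 4.55 with CU27, 4.76 and 4.69 in Huh7.5.1 with DMSO, and 4.13 and 4.33 in Hep3B with DMSO. TGFA, another EGFR ligand, read 5.40 and 5.14 with CU27, 5.30 and 5.38 in Huh7.5.1 with DMSO, and 4.95 and 4.97 in Hep3B with DMSO. None of ERBB4, HGF and TGFA reached the floor in any group, so they were not tested.

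Proteases that release or activate these ligands, and their inhibitors, were compared as a list. Of 7 tested, 0 were higher and 4 lower in Huh7.5.1, where 41% and 22.9% of all genes were, with a median of -1.04, against 0.22 for all genes. ST14 (matriptase) read 5.40 and 5.27 with CU27, 5.59 and 5.46 in Huh7.5.1 with DMSO, and 8.21 and 8.54 in Hep3B with DMSO. HPN (hepsin), like matriptase an activator of pro-HGF, read 8.42 and 8.19 with CU27, 8.0 and 7.65 in Huh7.5.1 with DMSO, and 10.20 and 10.08 in Hep3B with DMSO. Hep3B was the highest group for both. ST14 differed by -2.85 ± 0.17 (adjusted p = 2.02e-06), at least 4.80-fold, and HPN by -2.32 ± 0.17 (adjusted p = 5.38e-06), 5.00-fold. RHBDF2, a partner of the sheddase ADAM17, differed by -1.27 (adjusted p = 0.000117), but by 0.10 with the mean of its probe sets (adjusted p = 0.523).

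With CU27, 1 of these 7 genes rose and 0 fell, against 12.6% and 12.1% of all genes, with a median of 0.37. The gene that rose was SPINT1, an inhibitor of the HGF activating proteases. It read 10.07 and 10.22 with CU27, 9.31 and 9.30 in Huh7.5.1 with DMSO, and 10.23 and 10.45 in Hep3B with DMSO. Huh7.5.1 DMSO was lowest, without overlap. SPINT1 rose by 0.84 ± 0.13 (adjusted p = 0.00338), 1.79-fold, and differed by -1.04 ± 0.13 between the lines (adjusted p = 0.000161).

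Adaptors and proximal effectors moved in both directions with CU27. Of 14 tested, 3 rose and 2 fell, against 12.6% and 12.1% of all genes, with a median of 0.11. SOS1, the exchange factor that activates RAS at these receptors, read 10.44 and 10.56 with CU27, 8.72 and 8.92 in Huh7.5.1 with DMSO, and 8.12 and 7.78 in Hep3B with DMSO. CU27 was highest and Hep3B lowest, without overlap. SOS1 rose by 1.68 ± 0.16 (adjusted p = 0.000614), 3.21-fold, and by 1.03 with the mean of its probe sets (adjusted p = 0.00299). SOS2, its paralogue, did not pass (0.04, adjusted p = 0.912), a gene named after its values were seen. SOS1 was 0.87 higher in Huh7.5.1 than in Hep3B (adjusted p = 0.00135).

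The other adaptor calls with CU27 were each lost under some alternatives. PIK3R1, the regulatory subunit of PI3 kinase, differed by -0.86 ± 0.17 (adjusted p = 0.0076), lost without Huh7.5.1 DMSO replicate 2 (0.0762) and with the mean of its probe sets (0.0965). PTPN11, the phosphatase SHP2, differed by -0.61 (adjusted p = 0.016), lost without CU27 replicate 2 (0.0715) or Huh7.5.1 DMSO replicate 2 (0.133), and with the mean of its probe sets (-0.53, adjusted p = 0.105). GAB2, a docking protein, differed by 0.64 (adjusted p = 0.0249), lost without CU27 replicate 2 (0.127), Huh7.5.1 DMSO replicate 1 (0.0507) or Huh7.5.1 DMSO replicate 2 (0.179). PLCG1, phospholipase C gamma, differed by 0.57 (adjusted p = 0.0438), lost without CU27 replicate 2 (0.196), Huh7.5.1 DMSO replicate 1 (0.0837), Huh7.5.1 DMSO replicate 2 (0.246), Hep3B DMSO replicate 2 (0.0538) or Hep3B DMSO replicate 3 (0.055). PLCG1 also missed the threshold with the mean of its probe sets (0.06), without a filter on dim genes (0.0635), with a floor at the 25th percentile (0.0562), without _x and _s probe sets (0.05) and in a fit of the 4 arrays compared (0.0529).

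Between the lines 4 adaptors were higher and 4 lower in Huh7.5.1, against 41% and 22.9% of all genes, with a median of 0.16. GRB7, an adaptor of ERBB2 encoded beside it, read 5.76 and 5.89 with CU27, 5.82 and 5.89 in Huh7.5.1 with DMSO, and 8.02 and 8.13 in Hep3B with DMSO. Hep3B alone lay above the floor. GRB7 differed by -2.22 ± 0.15 (adjusted p = 4.23e-06), at least 3.91-fold lower in Huh7.5.1. SHC1, which links receptors to GRB2, differed by -1.48 (adjusted p = 7.19e-05), and by -0.45 with the mean of its probe sets (adjusted p = 0.0475). PIK3R1 was 1.24 higher in Huh7.5.1 (adjusted p = 0.000217). CRKL, another adaptor, differed by -0.76 (adjusted p = 0.00516), but by 0.01 with the mean of its probe sets (adjusted p = 0.942). GAB2 differed by 0.46 (adjusted p = 0.0389), which was 0.04 after centring (adjusted p = 0.848), 0.05 after quantile normalization (adjusted p = 0.798), and was lost without Huh7.5.1 DMSO replicate 1 (0.33, adjusted p = 0.231), Huh7.5.1 DMSO replicate 2 (0.0502), Hep3B DMSO replicate 2 (0.0997) or Hep3B DMSO replicate 3 (0.122). The remaining calls were GRB2 at 0.43 (adjusted p = 0.0119), or 0.20 relative to the shift, and FRS3 at -0.85 (adjusted p = 0.00142). FRS3 was below the floor in Huh7.5.1 and at least 1.17-fold lower there. Both were named after their values were seen.

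Attenuators are genes that restrain these receptors and that their signalling often induces. With CU27 4 of 18 tested fell and 2 rose, against 12.1% and 12.6% of all genes, with a median of -0.18. DUSP6, the phosphatase of ERK that FGF signalling induces, read 9.37 and 9.85 with CU27, 10.42 and 11.17 in Huh7.5.1 with DMSO, and 9.57 and 8.78 in Hep3B with DMSO. Huh7.5.1 DMSO was highest, and CU27 lay below it without overlap. DUSP6 fell by 1.18 ± 0.31 (adjusted p = 0.0234), 2.27-fold lower, a call lost without CU27 replicate 1 (0.107) or Huh7.5.1 DMSO replicate 2 (0.166). SPRY1, a Sprouty inhibitor of the RAS pathway, differed by -0.81 ± 0.24 (adjusted p = 0.0366), lost without CU27 replicate 1 (0.12), CU27 replicate 2 (0.0954) or Huh7.5.1 DMSO replicate 2 (-0.51, adjusted p = 0.248). SPRY2, its relative, read 8.34 and 8.42 with CU27, 8.40 and 9.12 in Huh7.5.1 with DMSO, and 7.52 and 7.32 in Hep3B with DMSO. SPRY2 overlapped and differed by -0.38 ± 0.22 (adjusted p = 0.252). It passed without Huh7.5.1 DMSO replicate 1 (-0.74, adjusted p = 0.0439) and was -0.02 without Huh7.5.1 DMSO replicate 2 (adjusted p = 0.967).

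Further attenuators passed with CU27. LRIG3 differed by -0.61 (adjusted p = 0.0384), lost without CU27 replicate 1 (0.0628), CU27 replicate 2 (0.149), Huh7.5.1 DMSO replicate 1 (0.0672) or Huh7.5.1 DMSO replicate 2 (0.235), and without a filter on dim genes (0.0533). LRIG2, another LRIG membrane protein, differed by 0.70 (adjusted p = 0.0341), at least 1.32-fold, lost without CU27 replicate 1 (0.0513), CU27 replicate 2 (0.163), Huh7.5.1 DMSO replicate 1 (0.0867) or Huh7.5.1 DMSO replicate 2 (0.182). CBLB, a ubiquitin ligase that sends receptors to degradation, differed by 0.62 (adjusted p = 0.0186), lost without CU27 replicate 2 (0.0881), Huh7.5.1 DMSO replicate 1 (0.0634) or Huh7.5.1 DMSO replicate 2 (0.124), and 0.21 with the mean of its probe sets (adjusted p = 0.372). ERRFI1, an inhibitor of ERBB kinases, differed by -0.53 ± 0.14 (adjusted p = 0.0296) and was named after its values were seen, so no alternative was run for it.

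**Figure D4:**
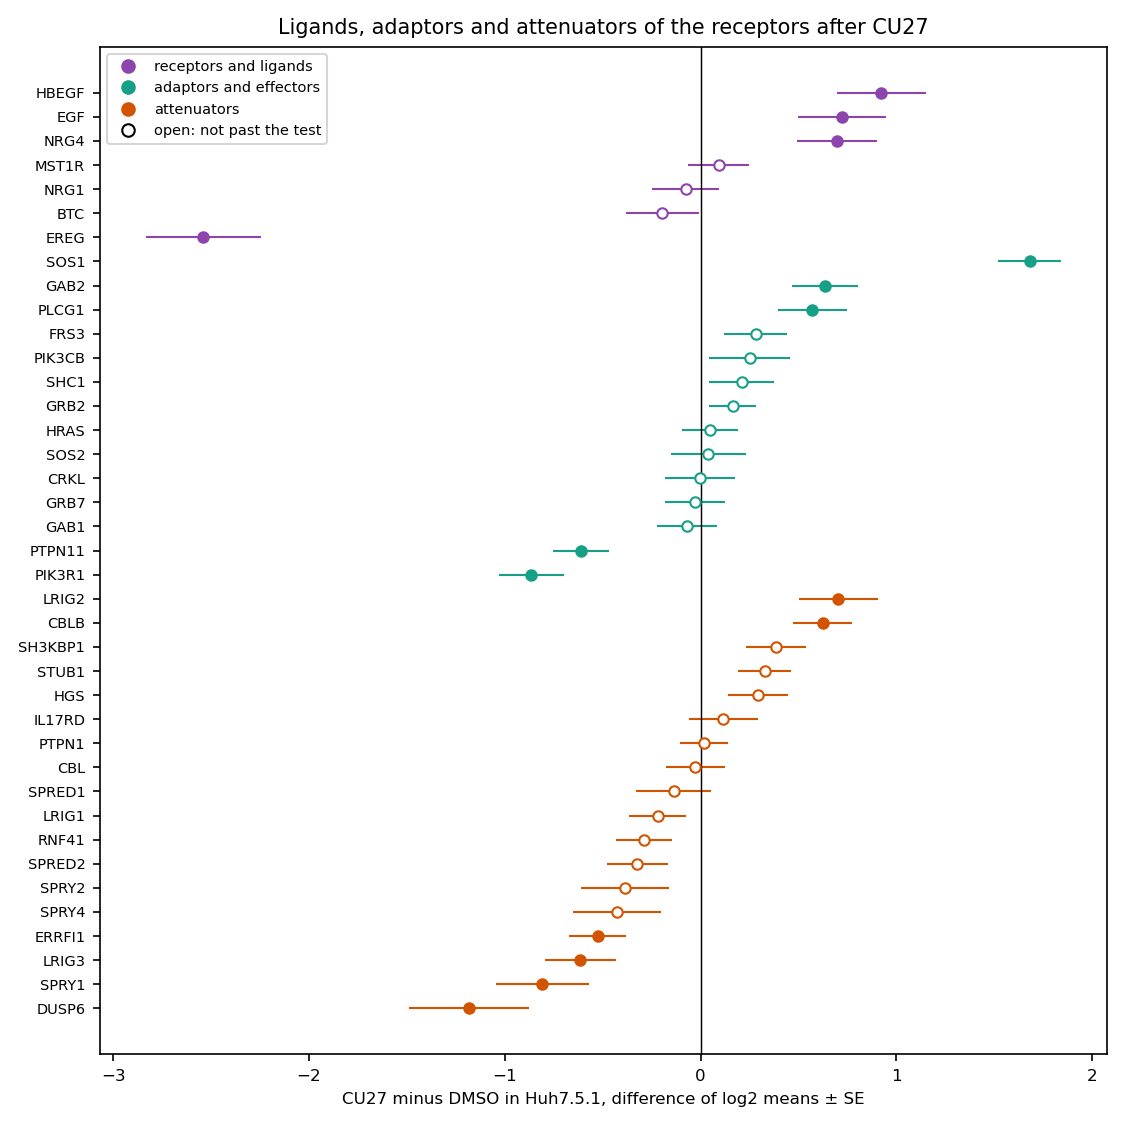
CU27 minus DMSO in Huh7.5.1 (x axis, difference of log2 means ± SE) for the 39 tested genes of 3 lists (y axis): other receptors and ligands, adaptors and effectors, and attenuators; filled points passed the test. EREG at -2.54 and SOS1 at 1.68 lie furthest from 0.

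Between the lines 9 of 18 attenuators were higher in Huh7.5.1 and 2 lower, against 41% and 22.9% of all genes, with a median of 0.45. The 9 include LRIG2, which was below the floor in both lines (means 5.80 and 5.27) and is given no difference between them. DUSP6 was 1.62 ± 0.31 higher (adjusted p = 0.00155), 3.08-fold. SPRY4 was 1.69 higher (adjusted p = 0.000194), SPRY2 1.34 higher (adjusted p = 0.000763), and RNF41, the ubiquitin ligase of ERBB3, 1.63 higher (adjusted p = 1.59e-05). LRIG1, which lowers ERBB receptor levels, read 6.41 and 6.53 with CU27, 6.65 and 6.73 in Huh7.5.1 with DMSO, and 8.91 and 8.92 in Hep3B with DMSO. LRIG1 was thus highest in Hep3B and differed by -2.23 ± 0.14 (adjusted p = 2.86e-06), 4.69-fold, and by -0.98 with the mean of its probe sets (adjusted p = 0.00017). IL17RD, an inhibitor of FGF signalling, differed by -1.94 (adjusted p = 2.07e-05), at least 1.44-fold.

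FGF19 lies beside CCND1, which encodes cyclin D1, in a region of chromosome 11 that is known to be amplified in part of liver cancers. CCND1 read 10.71 and 10.17 with CU27, 10.98 and 10.89 in Huh7.5.1 with DMSO, and 8.42 and 8.50 in Hep3B with DMSO. Hep3B was lowest, and CU27 lay below Huh7.5.1 DMSO. CCND1 was 2.48 ± 0.18 higher in Huh7.5.1 (adjusted p = 4.94e-06), 5.56-fold. With CU27 it differed by -0.50 ± 0.18 (adjusted p = 0.0684), which did not pass. It passed with the replicate block (adjusted p = 0.0313) and without CU27 replicate 1 (-0.77, adjusted p = 0.00885), and was -0.23 without CU27 replicate 2 (adjusted p = 0.308). LTO1, its other close neighbour, was 1.89 higher in Huh7.5.1 (adjusted p = 0.000131), and 3.81 without _x and _s probe sets (adjusted p = 2.66e-07).

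Genes further along the region were lower in Huh7.5.1. FADD, which couples death receptors to caspases, differed by -0.90 (adjusted p = 0.000778), PPFIA1 by -0.76 (adjusted p = 0.00039) and CTTN, cortactin, by -0.88 (adjusted p = 0.000123). At this FADD probe set both Hep3B DMSO columns hold the same value, so Hep3B adds no spread to its test. With the mean of all probe sets the differences were -0.14 for FADD (adjusted p = 0.449), -0.21 for PPFIA1 (adjusted p = 0.176) and 0.08 for CTTN (adjusted p = 0.638). TPCN2, at -0.69 (adjusted p = 0.0115), was named after its values were seen. In all, 3 of 7 tested neighbours were higher in Huh7.5.1 and 4 lower, against 41% and 22.9% of all genes, with a median of -0.69. With CU27 0 passed, where 24.7% of all genes did, with a median of -0.05. Copy number was not measured.

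Among the neighbours of MET, CAV1 and CAV2 rose with CU27. CAV1, caveolin, read 10.75 and 10.54 with CU27, 9.30 and 8.78 in Huh7.5.1 with DMSO, and 7.69 and 7.76 in Hep3B with DMSO. CAV2 read 10.36 and 10.39 with CU27, 9.58 and 9.64 in Huh7.5.1 with DMSO, and 7.61 and 7.78 in Hep3B with DMSO. CU27 was highest and Hep3B lowest for both, without overlap. CAV1 rose by 1.60 ± 0.18 (adjusted p = 0.00108), 3.04-fold, and CAV2 by 0.77 ± 0.13 (adjusted p = 0.00492), 1.70-fold. TES, which encodes a focal adhesion protein, differed by -0.55 ± 0.10 (adjusted p = 0.00589), lost without Huh7.5.1 DMSO replicate 2 (0.066) and with the mean of its probe sets (-0.18, adjusted p = 0.336).

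Between the lines all 4 tested neighbours of MET were higher in Huh7.5.1, where 41% of all genes were, with a median of 1.24. CAV2 was 1.91 ± 0.13 higher (adjusted p = 4.53e-06), CAV1 1.32 ± 0.18 (adjusted p = 0.000272), TES 1.16 ± 0.10 (adjusted p = 1.5e-05), and CAPZA2, named after its values were seen, 0.30 (adjusted p = 0.0354), or 0.08 relative to the shift. With CU27 2 of the 4 rose and 1 fell, against 12.6% and 12.1% of all genes, with a median of 0.51.

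The genes around EGFR were lower in Huh7.5.1 at their brightest probe sets. LANCL2 differed by -1.54 ± 0.19 (adjusted p = 0.000117) and VOPP1 by -1.46 ± 0.12 (adjusted p = 1.36e-05). So 0 of 2 tested were higher in Huh7.5.1 and 2 lower, against 41% and 22.9% of all genes. With the mean of all probe sets LANCL2 differed by -0.69 (adjusted p = 0.00211) and VOPP1 by 0.06 (adjusted p = 0.742), and without _x and _s probe sets VOPP1 differed by 0.33 (adjusted p = 0.113). With CU27 neither passed, with a median of 0.30.

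Around ERBB2, 2 of 7 tested genes rose with CU27 and 0 fell, against 12.6% and 12.1% of all genes, with a median of -0.03. MIEN1 rose by 0.74 ± 0.14 (adjusted p = 0.0073), a call lost without Huh7.5.1 DMSO replicate 1 (0.0507). STARD3, a cholesterol carrier of late endosomes, differed by 0.61 (adjusted p = 0.0173), lost without CU27 replicate 2 (0.0713) or Huh7.5.1 DMSO replicate 2 (0.14). Between the lines 1 was higher and 3 were lower, against 41% and 22.9% of all genes, with a median of 0.00. The lower genes were GRB7, already given, CDK12, a kinase of transcription elongation, at -0.94 (adjusted p = 0.00168), and MIEN1 at -0.38 (adjusted p = 0.0439). MIEN1 missed the threshold between the lines without Huh7.5.1 DMSO replicate 1 (0.25), Hep3B DMSO replicate 2 (0.112) or Hep3B DMSO replicate 3 (0.164), and without the intensity trend (0.0606). MED1, a Mediator subunit, was 0.60 higher (adjusted p = 0.00314), and 0.18 after centring (adjusted p = 0.261).

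The genes whose pattern was most like that of a member were found as the smallest root mean square difference of centred log2 values over the 6 arrays. For FGF19 these were UCA1 (0.153), ANO3 (0.161) and GJA1 (0.196). UCA1, a long noncoding RNA, differed by -1.48 with CU27 and by 3.61 between the lines. The nearest gene was TMEM98 for KLB (0.0859), ANGPTL8 for FGFR2 (0.141), SLC35C1 for FGFR3 (0.0308), LYPLA2 for FGFR4 (0.0244), CMC1 for EGFR (0.0657), NHP2 for ERBB2 (0.0195), SEL1L3 for ERBB3 (0.0723) and PLCB1 for MET (0.0668). A small difference is easier to reach for a gene that varies little, such as ERBB2, than for FGF19 or FGFR2.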

How the data were processed

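Per the labels, total RNA of each of 6 samples was amplified from the 3′ end, labelled with biotin and measured on an Affymetrix array. The values are the log2 signals deposited by the authors, 49395 probe sets in 8 columns. The log2 scale was read from their range. MAS5 is named, without a version, in the submitters' processing notes, and the scaling between arrays is stated nowhere in the sources used here. The 2 Hep3B CU27 columns were left out, being linear combinations of the Hep3B DMSO columns. Arrays have no read depth, so their number limits the precision. The Hep3B DMSO columns are identical at 1077 probe sets, 0 of which belong to a member. The probe set used for FADD is among the 1077.

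After 102 controls were removed, 44988 probe sets had 1 symbol in the platform annotation, 1832 several and 2473 none, and only those with 1 were named. For 11734 of 18132 genes, with several probe sets, the one with the highest mean was used. Differences of group means came from limma 3.58.1 under R 4.3.3 (lmFit, contrasts and eBayes with intensity trend), with 3 residual and 5.87 prior degrees of freedom. P-values are two-sided, adjusted by Benjamini-Hochberg over 11383 genes, or over 27836 probe sets where so stated, and called under 0.05. Exact permutation of 2 arrays against 2 has 0.333 as its smallest p. The fit was tested on simulated data for the CU27 comparison, 11383 genes with 200 changed. It recovered 66% of 2-fold and 100% of 4-fold changes there, and 6.74% of its calls were false. The simulated noise was independent and normal, with variances drawn from limma's own fitted prior. These rates describe that model, with fewer genes changed than the 2809 called here, and not the deposited arrays.

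Named are the members, up to 3 genes past the test in each direction from each pathway and neighbour list by size of difference, FGFR1, ERBB4, CYP7A1, TGFA, HGF, SPRY2, DUSP6 and CCND1 as contrasts, and the genes nearest in pattern (3 for FGF19, 1 for the others). Others, BTC among them, are named because a count was small. Members and lists were chosen with earlier results of these data known. Promoters were read from a RefSeq table of GRCh38.p14, where 8 of the 10 genes matched (14 windows), and FGF19 and ERBB3 are named only. Alternatives changed the scaling, floor, probe set rule, variance model, arrays fitted and replicate block, and left out each array.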

Additional observations from a re-analysis of the deposited data

How the results depend on the processing

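The limits are the 2 arrays per group, the unknown scaling between the lines, and genes read through 1 probe set. With CU27, FGF19, SOS1, SPINT1, CAV1 and CAV2 kept their direction and their side of the threshold in all 15 alternatives, and EREG in the 14 run for it. The number of genes called with CU27, 2809, ran from 900 to 2923 when 1 array was left out (1517 without CU27 replicate 2, 1639 without Huh7.5.1 DMSO replicate 1 and 900 without Huh7.5.1 DMSO replicate 2). Of the 9 members, 3 were called with CU27, 1 in a fit of the 4 arrays compared, and 1 to 5 when 1 array was left out. The replicate block of the Huh7.5.1 arrays gave 3182 genes and 3 members. Among the genes refitted with the replicate block, CCND1 alone changed its call, past the threshold at an adjusted p of 0.0313, and genes named after their values were seen were not refitted. Deviations of arrays with the same number correlated at 0.179, and 2 pairs share only a number. Between the lines the 7283 genes called ranged from 5877 to 10641, the last without a filter and over 18132 genes tested. Members called stayed between 6 and 8. The split into higher and lower genes depended on the scaling, with 4671 and 2612 as deposited and 2648 and 4659 after centring. Signs turned between the lines for ERBB2 with quantile normalization (-0.19) and centring (-0.31), for ERBB3 (0.23) and VOPP1 (0.33) without _x and _s probe sets, and, averaging all probe sets of a gene, for CRKL (0.013), CTTN (0.078), RHBDF2 (0.10) and VOPP1 (0.056). With CU27 that average turned EGFR (0.25). Of these only ERBB2 turned with the scaling, the others with the choice of probe set, and the cause was not tested.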

Other observations

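Markers of cell types that these cultures should lack also varied. Of 8 leukocyte markers 3 were tested. CD68, a glycoprotein of lysosomes and a macrophage marker, read 8.86 and 9.34 with CU27, 7.04 and 6.67 in Huh7.5.1 with DMSO, and 7.15 and 7.16 in Hep3B with DMSO. CD68 rose by 2.25 ± 0.20 with CU27 (adjusted p = 0.000394), 4.74-fold, and its CU27 arrays lay above all others. PTPRC lay below the floor on all arrays. LYZ, lysozyme, read 11.44 and 10.57 with CU27, 11.86 and 11.83 in Huh7.5.1 with DMSO, and 8.09 and 7.36 in Hep3B with DMSO, and was 4.12 ± 0.29 higher in Huh7.5.1 than in Hep3B (adjusted p = 4.81e-06). CD14 read 4.0 and 4.04 with CU27, 4.65 and 4.78 in Huh7.5.1 with DMSO, and 6.70 and 6.51 in Hep3B with DMSO. It was at least 1.41-fold lower in Huh7.5.1 than in Hep3B (adjusted p = 2.38e-05). Its signal was also lower with CU27 (adjusted p = 0.0214), with both Huh7.5.1 groups below the floor, so no fold is given. Of the 3 tested, 1 rose and 1 fell with CU27, against 12.6% and 12.1% of all genes. Between the lines 1 was higher and 1 lower, against 41% and 22.9%. The summed linear signal of the 8 was 3416 and 2359 with CU27, 4042 and 3954 in Huh7.5.1 with DMSO, and 661 and 559 in Hep3B with DMSO.

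Of 8 fibroblast and stellate markers 3 were tested, and COL1A2, COL3A1 and DCN lay below the floor throughout. PDGFRA, a receptor of PDGF, read 6.39 and 6.81 with CU27, 8.32 and 8.63 in Huh7.5.1 with DMSO, and 7.08 and 6.15 in Hep3B with DMSO. It fell by 1.87 ± 0.29 with CU27 (adjusted p = 0.003), 3.67-fold lower. It was 1.86 ± 0.29 higher in Huh7.5.1 than in Hep3B (adjusted p = 0.000508). Of the 3, 1 was higher and 1 lower between the lines, against 41% and 22.9% of all genes. LUM, with a mean above the floor in Hep3B alone (6.15), differed by -3.35 (adjusted p = 4.94e-06), at least 1.03-fold. PDGFRB passed neither test, and LUM did not pass with CU27. Thus 0 of the 3 rose and 1 fell with CU27, against 12.6% and 12.1% of all genes. Among 5 biliary markers 4 were tested. Between the lines 2 were higher in Huh7.5.1 and 2 lower, against 41% and 22.9% of all genes. With CU27 0 rose and 1 fell, against 12.6% and 12.1% of all genes. KRT19 read 5.12 and 5.74 with CU27, 4.95 and 5.28 in Huh7.5.1 with DMSO, and 11.53 and 11.79 in Hep3B with DMSO, at least 46.8-fold lower in Huh7.5.1 (adjusted p = 9.89e-08). SOX9, a transcription factor of biliary cells, fell by 1.36 ± 0.11 with CU27 (adjusted p = 0.00037). SOX9 was 1.07 higher in Huh7.5.1 than in Hep3B (adjusted p = 4.85e-05). SPP1 was 2.90 higher (adjusted p = 4.93e-05), at least 3.25-fold, with Hep3B below the floor. EPCAM was the other lower gene, at -1.15 (adjusted p = 0.00181). Of 6 endothelial markers 1 was tested, KDR, which passed neither test. These genes were named after their values were seen, and no alternative was run for them. Their part in the differences of the receptors was not tested.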
